A study of Mus musculus with 4 samples.

Results

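The interleukin 1 locus of mouse chromosome 2 carries Il1a and Il1b, the genes of interleukin 1 alpha and interleukin 1 beta. The locus was taken as the window from 128.9 to 129.5 Mb of build mm9, and its members were chosen by the midpoints of the deposited peaks. It holds 14 Gata6 peaks, out of 818 on chromosome 2. The 14 are 0.115% of the whole list, and the other 12123 peaks of the list lie outside it. The window was picked with these positions and name numbers in view, so what follows describes the locus and tests nothing in it. The study mapped sites of the zinc-finger transcription factor Gata6 by ChIP-seq in primary keratinocytes from mouse dorsal skin, on a C57BL6/CBA background. All cells carried the K14deltaNLef1 transgene, which puts a shortened form of the Wnt effector Lef1 under the keratin 14 promoter of basal epidermal cells, and all had received a lentivirus that overexpresses Gata6. The genotype of 1 of the Gata6 libraries is labelled K14deltaNLef1N. The series has 2 Gata6 libraries, one per antibody, besides 1 library from a Flag antibody, which served as the negative control, and 1 of input DNA. No library without the transgene or without the lentivirus was among them, so the sites belong to cells with added Gata6. The keratinocytes were grown on feeders of irradiated 3T3-J2 mouse fibroblasts, whose chromatin is of the same species. The labels' protocol names the shortened Lef1 as the precipitated protein, but the library titles and the antibody entries give Gata6 or Flag, which is the reading used here. The peak list is common to the series and gives no value per library, no peak height and no read depth, so the spread between libraries cannot be given for any value below.

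Interleukin 1 alpha and beta are related cytokines that signal through the same receptor and set off inflammatory gene expression. Keratinocytes hold interleukin 1 alpha in store and release it when the epidermis is damaged. Interleukin 1 beta is made as an inactive precursor that caspase-1 cleaves in the inflammasome. Gata6 belongs to a family whose zinc fingers recognise short sites built around the letters GATA.

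The 250 bases before each gene's annotated start are shown first, because they are the gene-proximal sequence against which the distant peaks can be set. They come from RefSeq on build GRCm38.p6, a later build than that of the peaks, so their coordinates cannot be laid over the peak positions. Both genes lie on the minus strand, which places their upstream side toward higher coordinates. Capitals mark a match to AGATAA or AGATAG or TGATAA or TGATAG on either strand. The Il1a stretch is chr2:129309973-129310222 and the Il1b stretch is chr2:129371140-129371389, both written from 5′ to 3′ along the gene.
Il1a: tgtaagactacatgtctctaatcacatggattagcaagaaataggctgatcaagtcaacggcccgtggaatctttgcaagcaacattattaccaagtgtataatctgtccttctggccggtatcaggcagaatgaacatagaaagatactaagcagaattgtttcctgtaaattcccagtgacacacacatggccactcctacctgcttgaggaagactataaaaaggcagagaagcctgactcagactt
Il1b: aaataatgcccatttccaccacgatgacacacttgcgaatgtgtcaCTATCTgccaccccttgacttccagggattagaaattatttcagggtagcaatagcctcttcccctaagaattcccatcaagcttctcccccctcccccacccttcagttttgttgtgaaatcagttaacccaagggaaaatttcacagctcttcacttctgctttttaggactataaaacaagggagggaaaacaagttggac

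The Il1a stretch held none of the 4 motifs. The Il1b stretch held 1, AGATAG on the strand opposite to the gene, from base -204 to base -199 before the start. AGATAG occurs in 7.71% of the 32851 promoter stretches of the same length in the table, and 26.5% hold at least 1 of the 4 motifs. Among 26 genes of interleukin 1 family signalling, 19 had an entry, and 4 of these held a motif in a stretch of theirs (Il18rap, Il1f10, Il1r2 and Il1rl1). That is 21.1% of the 19 genes, beside 29.7% of all 27025 genes in the table. A match of letters describes the sequence and does not show a site.

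The 14 peaks were unevenly placed. The gene positions at hand are approximate, with Il1a near 129.13 Mb and Il1b near 129.19 Mb, each given to 0.01 Mb. Seen against them, 2 peaks lay below Il1a, 4 lay between the genes and 8 lay above Il1b. No listed peak fell within 10 kb of either position. The nearest peak to Il1a was 18.0 kb above its position and had name number 168. The nearest to Il1b was 25.7 kb below its position and had name number 199. All 8 peaks within 50 kb of the Il1b position were at least 25.7 kb from it, 4 on either side. These distances carry the error of the approximate positions, about 10 kb, and do not place any peak in an exon, intron or promoter.

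**Figure D1:**
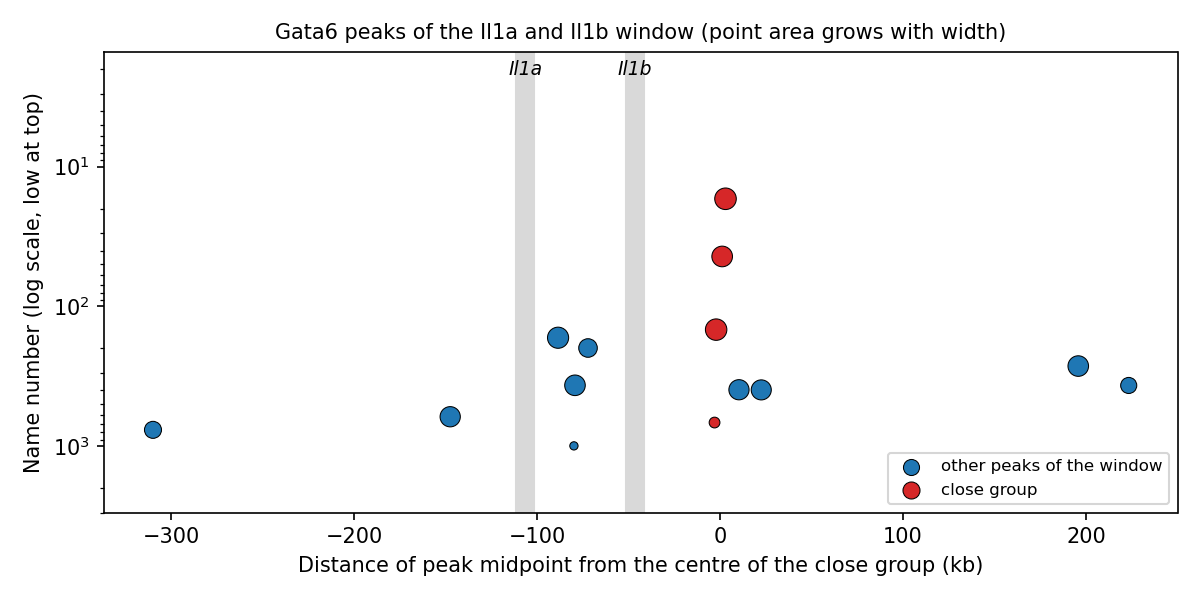
Each point is 1 of the 14 peaks, placed by its midpoint's distance in kb from the centre of the close group (x) and its name number on a log axis with low numbers at the top (y); point area grows with interval width, and grey bands mark the approximate gene positions ± 5 kb. The 4 peaks of the close group (red) stand above Il1b and include the 2 lowest numbers of the window, 17 and 44.

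In the order of a RefSeq gene table of build GRCm38.p6, used for order alone, the neighbours on the lower side of Il1a are Gm14023, Ckap2l and A730036I17Rik. Between the genes lie 2 entries, the snRNA Gm25703 and the pseudogene Gm18333. Above Il1b come Il1bos, a long noncoding RNA gene, then Spcs2-ps, a pseudogene, and F830045P16Rik, the nearest protein-coding gene on that side. No peak was assigned to any of these genes.

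Above Il1b, 4 peaks formed a close group, defined as peaks whose midpoints each lie within 5 kb of the next. From low to high coordinate they were the intervals chr2:129233473-129233503, chr2:129234276-129234438, chr2:129237581-129237730 and chr2:129239396-129239560. Their widths were 31, 163, 150 and 165 bp. Neighbouring midpoints were 0.869, 3.30 and 1.82 kb apart, and the whole group spanned 5.99 kb. It began 43.5 kb and ended 49.5 kb above the Il1b position, and it lay 103 to 109 kb above that of Il1a. Since both genes lie on the minus strand, this is the upstream side of each. Groups of 4 or more took in 2.57% of chromosome 2 peaks and 4 of the 14 here, a count that the choice of the window fixes.

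The names of the peaks end in a whole number, called the name number here. Its meaning is not given by the labels or the file. The numbers of the group fell along the chromosome, from 680 through 147 and 44 to 17. Number 17 ranked 13th among the 818 listed numbers of chromosome 2, which start at 3 and end at 2341, and number 44 ranked 39th. Of the chromosome's peaks, 5.5% had a number of 50 or lower, and both such peaks of the window were in the group. They lay 1.82 kb apart. This was the only pair of peaks numbered 50 or lower within 5 kb of each other on chromosome 2. The whole list held 27 such pairs on 15 chromosomes, counted between successive peaks of such number. Peaks of higher number can lie between the 2 of a pair, as number 203 does between 45 and 12 on chromosome 19. Close peaks of such low number were thus found at other loci as well.

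The interval with number 17 was also among the wide ones. Widths on chromosome 2 end at 166 bp, with an upper quartile of 157 bp, so wide intervals differ by few bp. At 165 bp, number 17 lay above 91.2% of these widths, and 72 of the 818 peaks, itself included, were at least as wide. Of the 45 listed peaks numbered 50 or lower, 6 were at least as wide, itself included, and their median was 151 bp. The interval with number 44, at 150 bp, was near that median. The interval with number 147, at 163 bp, lay above 86.1% of the chromosome's widths. The 31-bp interval with number 680 was narrower than all but 2.08% of them.

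**Figure D2:**
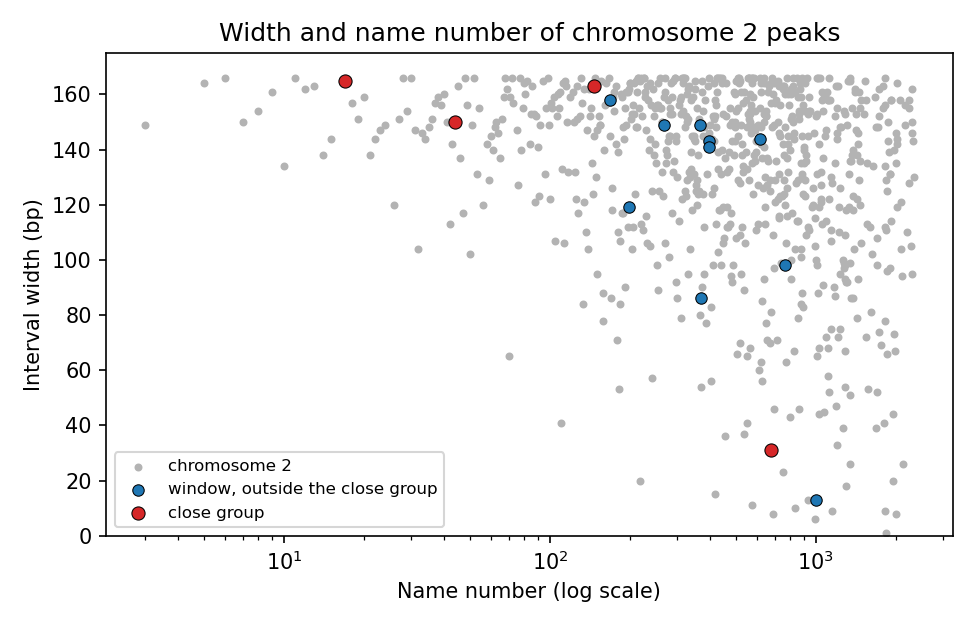
Each point is 1 listed peak of chromosome 2, by name number on a log axis (x) and interval width in bp (y); the close group is red, the other 10 peaks of the window are blue and the rest of the chromosome is grey. Among the low numbers at the left no peak is as narrow as the 31-bp and 13-bp members, which have numbers 680 and 999.

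Between the genes, 4 further peaks lay within 16.4 kb, at chr2:129147900-129148057, chr2:129156638-129156650, chr2:129157148-129157296 and chr2:129164286-129164404. They were 18.0 to 34.3 kb above the Il1a position and 42.0 to 25.7 kb below that of Il1b, so upstream of the former and downstream of the latter. Their numbers were 168, 999, 368 and 199, and their widths 158, 13, 149 and 119 bp. This set was looser than the close group, with midpoints 8.67, 0.578 and 7.12 kb apart, and it reached no number below 168. A stretch of 69.1 kb without a listed peak, in which the approximate position of Il1b falls, parted it from the close group.

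Each of these sets held a tight pair made of a narrow and a wide interval. In the set between the genes the 13-bp interval lay 578 bp from the 149-bp one, and in the close group the 31-bp interval lay 869 bp from the 163-bp one. In both pairs the narrow interval was at the lower coordinate and had the higher number. These were the only 2 members of 83 bp or narrower, in a chromosome where 10.1% of peaks were that narrow. On chromosome 2, 4 of 27 pairs within 1 kb held an interval that narrow (14.8%), and in the whole list 77 of 409 did (18.8%). The 2 pairs of this locus therefore made up 2 of those 4.

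The remaining 6 peaks were scattered. Next above the close group came chr2:129246763-129246905, 7.36 kb from its last member, and chr2:129258949-129259089, 12.2 kb further on. Their numbers, 396 and 397, follow each other, and number 398 was listed 0.523 Mb higher, outside the window. Farther out lay chr2:129432168-129432316 with number 268 and chr2:129459770-129459855 with number 369. Number 368 is the peak between Il1a and Il1b, 0.303 Mb lower. On the lower side, chr2:128926570-128926667 had number 767 and chr2:129088962-129089105 had number 618. These 6 intervals were 86 to 149 bp wide.

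Runs of numbers that follow position, such as 396 to 398, were usual on chromosome 2 except at the lowest numbers. From one listed number to the next, position rose in 149 of 158 steps among numbers 201 to 400 (94.3%), but in 26 of 44 steps among numbers 1 to 50 (59.1%). Number 18 was 7.54 Mb above number 17, and number 43 was 35.2 Mb below number 44. Numbers 396 and 397 thus sit in a band that mostly ran along the chromosome, and numbers 17 and 44 in one that did so less often.

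As a whole the window was full for its length. It held 23.3 peaks per Mb, against 4.59 per Mb over the 178 Mb of chromosome 2 between its outermost peaks, a ratio of 5.09. In other terms, 1.71% of the chromosome's peaks (95% Wilson interval 1.02 to 2.85, counting error only) lay in 0.336% of its span. The interval takes peaks as independent draws, and the window was chosen with peak positions in view, so it does not test the ratio. The chromosome was cut into 296 tiles of the window's length, 0.6 Mb, aligned to the window. The median tile held 2 peaks and 102 tiles held none. A count of 14 or more was reached by 6 tiles, or 2.03%, this one included. The fullest held 17.

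**Figure D3:**
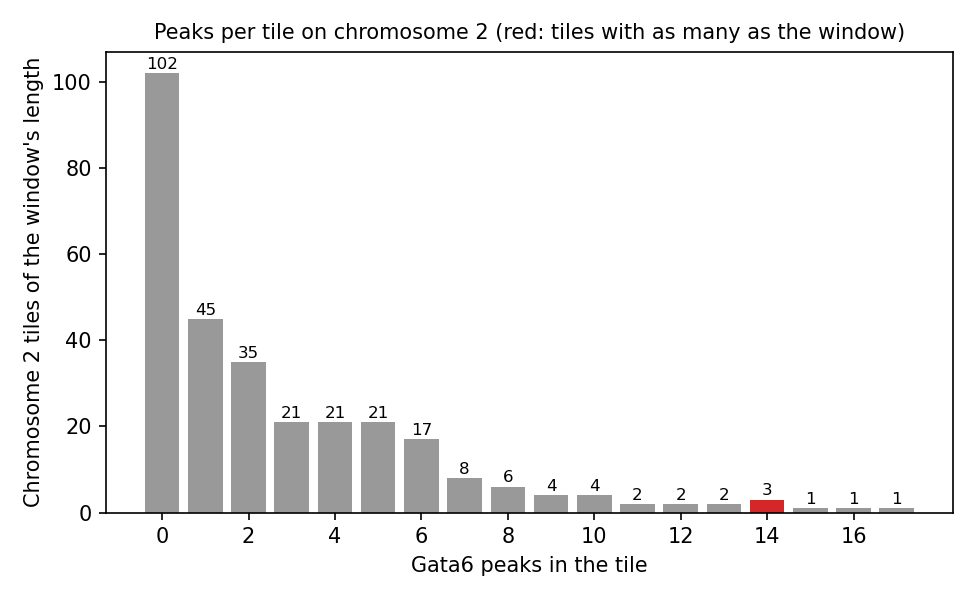
Bars give the number of chromosome 2 tiles of 0.6 Mb (y) that hold each number of peaks (x), with the tile count above each bar. The window is 1 of the 3 tiles with 14 peaks (red), and 3 tiles hold more, up to 17.

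The other 5 of these full tiles can be set beside the locus. The locus was chosen with number 17 and its close group in view, so contrasts in these follow in part from that choice. The lowest number in the other 5 tiles was 50, 69, 70, 75 and 122, against 17 here. A single one of them, with 14 peaks from 167300001 to 167900000, held a close group of 4 or more, of 5 peaks. In the other 4 the largest close group had 3 peaks.

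Across the window, name numbers were lower than on the chromosome and widths were alike. The median number was 368.5 in the window (range 17 to 999) and 520.5 on chromosome 2. A number below the chromosome's median, under which as many of its peaks lie as above, was held by 10 of the 14 members. Without the close group, the median of the other 10 members was 382.5. Since the window was chosen with name numbers in view, these lower medians test nothing, and none was taken for the other full tiles. The median width was 143.5 bp in the window (range 13 to 165 bp) and 143 bp on the chromosome. A neighbour within 5 kb was present for 6 of the 14, where 24.4% of chromosome 2 peaks had one. The close group makes up 4 of these 6. Neighbouring midpoints were a median of 8.67 kb apart inside the window and 54.5 kb apart along the chromosome. The window was chosen with its close group in view, so both contrasts in spacing follow in part from that choice.

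Among all groups of 4 or more peaks in the list, the one above Il1b had neither the shortest span nor the lowest single number. Its second lowest number, 44, was the lowest of any group, next to 45 on chromosome 19, but it was chosen with numbers in view. The same numbers recur across chromosomes, and they run to 2341 on chromosome 2 but to 4055 in the whole list. Raw numbers are thus not on one scale between chromosomes. By mean percentile among its own chromosome's numbers, this group (20.8) ranked 3rd from the lowest. Lower were chr4:124318535-124324116 (19.7) and chr1:192956336-192959649 (19.8). There were 25 groups of 4 or more, 22 of them with 4 peaks. Of the 22, 5 had a shorter span than the 5.99 kb above Il1b (median 7.33 kb). On chromosome 2 the other 4 groups spanned 8.40 to 9.26 kb, and the lowest number in any of them was 122. Elsewhere 2 groups had a lower lowest number by raw number, namely 4 in chr4:124318535-124324116 and 12 in chr19:32140530-32145681. The group on chromosome 19 was the only other one with 2 numbers of 50 or lower, 12 and 45, and it spanned 5.02 kb. In 2 of the 25 groups the numbers ran in 1 direction along the chromosome. The other, chr7:120640463-120648845, rose from 151 to 1900.

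**Figure D4:**
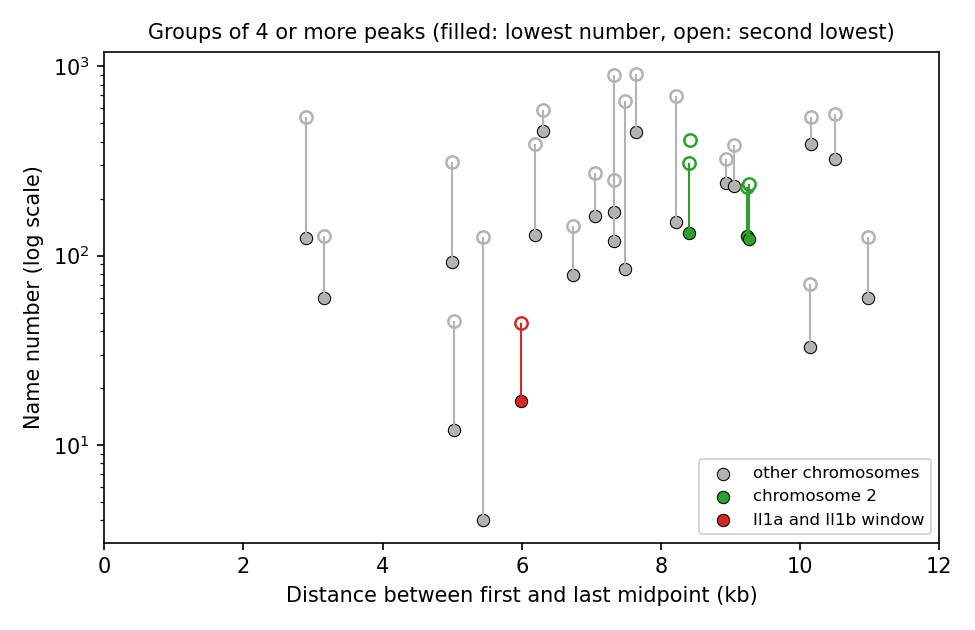
Each of the 25 groups of 4 or more peaks is placed by the distance in kb between its first and last midpoint (x) and by its lowest (filled) and second lowest (open) name number on a log axis (y), joined by a line. The group above Il1b (red) spans 5.99 kb with numbers 17 and 44, lower than the 4 other groups of chromosome 2 (green).

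The bounds of the window cut through no dense stretch. The first member lay 26.6 kb inside the lower bound, and the nearest peak outside it, number 1558, was 21.6 kb beyond. The last member lay 40.2 kb inside the upper bound, and the nearest peak outside it, number 342, was 20.4 kb beyond. The widest stretch without a peak inside the window was 173 kb, from the peak with number 397 to that with number 268. Of the 817 stretches between neighbouring peaks on the whole chromosome, 221 were wider.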

How the data were processed

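ChIP-seq libraries were made from sonicated nuclei of Gata6-overexpressing keratinocytes. BWA, HOMER and build mm9 are listed in the submitters' processing notes with no version. Neither the lists that were overlapped, nor the calling threshold, nor the part of the control libraries is given in the sources used here. The authors' deposited table is 1 list of intervals with start, end and name. Its score column, as deposited, is 0 in all 12137 rows and was not used. Starts are printed 1-based. Depth per library is unknown.

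Peaks were placed by midpoint. The tools were pandas 2.3.3 and NumPy 2.4.6 for counting, SciPy 1.17.1 for intervals and matplotlib 3.10.9 for plots, under Python 3.11.15. The counting functions were tested on simulated data. The named genes were Il1a, Il1b and 3 neighbours on either side. The members and lists were chosen with earlier results of these data known, and no test was run. Gene positions are the approximate ones of the rule that defined the window, since no annotation or genome of build mm9 was used. For the same reason no peak sequence was read and peaks near other genes of interleukin 1 signalling were not counted.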

Additional observations from a re-analysis of the deposited data

How the results depend on the processing

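The list gives no values per library, so none of the libraries could be omitted. No paired analysis was possible because every result is a description without a test. Of 21 alternative values, 17 stayed near the first value, meaning inside its 95% Wilson interval for shares, percentiles and the density ratio, and within 1.5 times of it for counts and distances. This yardstick is lenient: the interval of the density ratio ran from 3.04 to 8.48 and takes peaks as independent draws. The tally therefore says little about how firm the values are. The window held 12 to 14 peaks under the 4 alternatives tried. The density ratio to chromosome 2 was 5.99 with the window narrowed by 100 kb on each side, and 3.49 with it widened by 200 kb. For the window as chosen, the ratio was 5.16 to chromosome 2 without the window and 3.35 to only the tiles that hold a peak. The share of tiles as full was 1.99% to 2.14%. The members of the close group depended on the linking distance by construction: the peak with number 17 stood alone (1 peak) within 1 kb, had 2 members within 2 kb, 5 within 10 kb and 6 within 20 kb. Without intervals of 83 bp or narrower the group had 3 peaks. The median width of the group lay at percentile 74.4 of chromosome 2, and at 84.5 when only intervals wider than 83 bp were used, which removes its 31-bp member. Number 17 stood at 1.59% of the listed numbers by rank and at 0.726% of the highest number. The tiles of all chromosomes, the group without narrow intervals and the distance to its last midpoint were added after the data were seen. An annotation of build mm9 was not used, so that alternative was not run. Depth limits which sites reach the list, and its effect was not tested.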
